A study of Mus musculus with 2 samples.

Results

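The genes described here are the mouse splicing regulators of 9 families: the SR proteins (Srsf), the heterogeneous nuclear ribonucleoproteins (Hnrnp), TRA2, PTBP, MBNL, CELF, ELAVL, RBFOX and NOVA. They were chosen by gene symbol among protein-coding genes, with no measured value in the rule, and number 54 of the 21474 protein-coding genes that the tables and the annotation share, out of 43346 gene identifiers. The 54 genes lie on 20 chromosomes. For each gene its level and the division of that level among its own transcripts are given.

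The data are 2 total RNA libraries of whole intestine from B6NCrl mouse embryos at day 16.5 of gestation, healthy and untreated, with male and female embryos pooled. The label of replicate 2 gives 41 embryos, while that of replicate 1 states no number. Each library started from 10 ng of RNA longer than 200 nt. Both carry the same donor identifier but are separate tissue samples, they form 1 group, and no test between conditions was possible, so each SD below is the spread of 2 samples. Total expected counts (estimated reads per feature, in which a read shared by several features is divided among them) were 42040766 in replicate 1 and 41480301 in replicate 2, of which the 54 genes held 485738 (1.16%) and 452928 (1.09%).

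SR proteins carry an RNA-binding domain and a tail rich in arginine and serine, bind mostly in exons and recruit the splicing machinery to nearby splice sites. Many hnRNPs and PTBP proteins bind introns or exons and often block a splice site, and the MBNL, CELF, RBFOX, NOVA and ELAVL proteins give splicing its tissue pattern. Many of these genes limit their own output: the protein promotes inclusion of a so-called poison exon, or retention of an intron, in its own transcript. A poison exon brings an early stop codon, and a stop codon well upstream of the last exon junction marks a transcript for nonsense-mediated decay (NMD), the pathway in which UPF1 and partners degrade it.

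Nearly all of these regulators were present in the embryonic intestine. In TPM, a transcript level scaled for length and library total, 50 of 54 reached 1 TPM in both libraries (92.6%), against 62.0% of all protein-coding genes. The median over all 54 was 58.1 TPM, against 4.46 TPM over all protein-coding genes and 17.1 TPM over the detected ones. At 100 TPM or more stood 21 of them (38.9%, against 7.83% of all protein-coding genes), and together they summed to 7912 TPM in replicate 1 and 7577 TPM in replicate 2. In the order of levels, 25 of 53 neighbouring genes differed by more than the larger of their SDs and 28 did not.

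**Figure D1:**
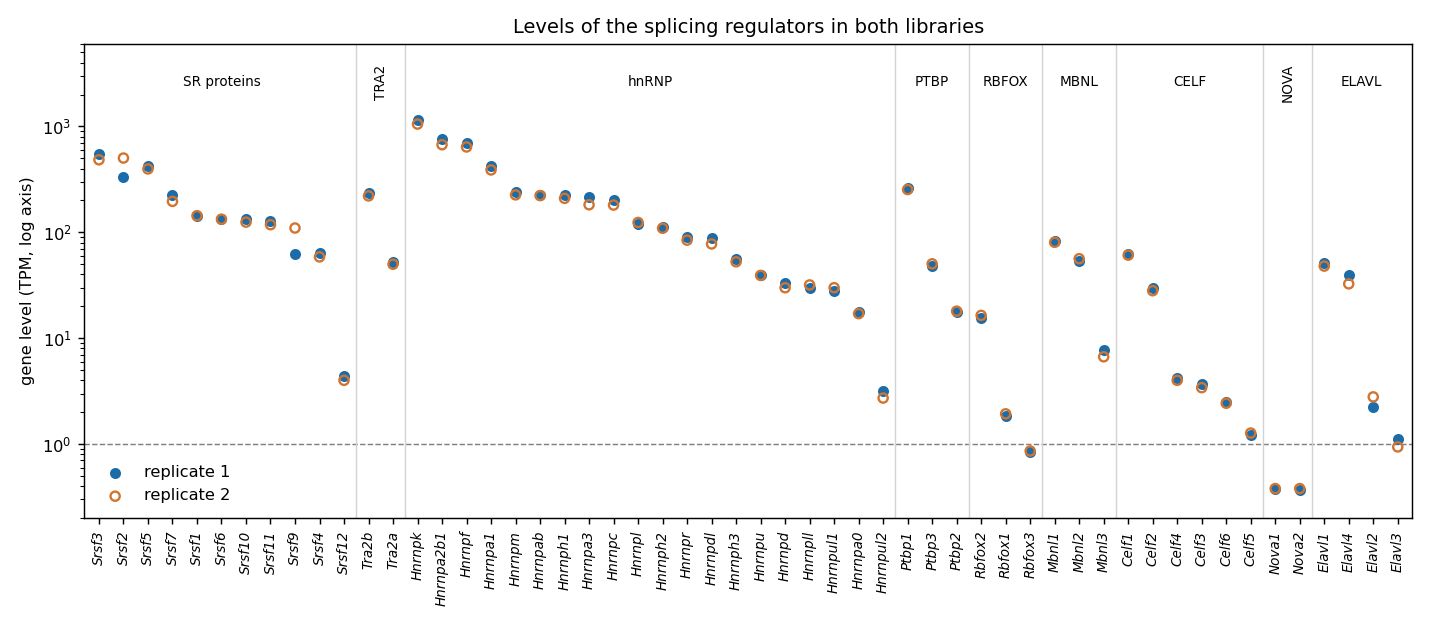
TPM of each of the 54 splicing regulators in replicate 1 and replicate 2, on a log axis, ordered by mean within each family. Hnrnpk stands highest at 1137 and 1051 TPM, and both Nova genes lie under 0.4 TPM.

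The hnRNPs were the most abundant family, with 4553 ± 263 TPM over 20 genes (SD, n = 2) and all 20 detected. Hnrnpk, which binds C-rich RNA and DNA through KH domains, had 1137 TPM in replicate 1 and 1051 TPM in replicate 2 and was the highest of the 54 genes. Hnrnpa2b1, a binder of exonic and intronic silencers, had 755 and 671 TPM, and Hnrnpf, which binds G-rich runs, had 701 and 639 TPM. The last 2 were not separated from each other by more than their spread, and both libraries of each lay below both of Hnrnpk. Hnrnpa1, the best studied splicing silencer of the group, had 420 and 388 TPM.

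Below them came a broad middle range. Hnrnpm had 233 ± 10.7 TPM, Hnrnpab 223 ± 2.04, Hnrnph1 217 ± 11.03, Hnrnpa3 199 ± 24.6 and Hnrnpc, which binds U-rich tracts, 192 ± 16.2 (SD, n = 2 throughout). Hnrnpl, a reader of CA repeats, had 122 ± 2.998 TPM, Hnrnph2 110.1 ± 1.41, Hnrnpr 87.0 ± 3.80, Hnrnpdl 82.7 ± 7.18 and Hnrnph3 54.4 ± 2.48. Hnrnpu, a nuclear scaffold protein, had 39.4 ± 0.311 TPM, Hnrnpd 31.4 ± 2.13, Hnrnpll 30.8 ± 1.41, Hnrnpul1 28.8 ± 1.59, Hnrnpa0 17.4 ± 0.559 and Hnrnpul2, the lowest of the family, 2.95 ± 0.325. The family median was 116 TPM.

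The 11 SR proteins summed to 2235 ± 49.7 TPM, were all detected and had a median of 134 TPM. Srsf3, the smallest member and an adaptor for mRNA export, had 552 TPM in replicate 1 and 484 TPM in replicate 2. Srsf5 had 419 and 396 TPM, and Srsf2, an activator that binds both C-rich and G-rich exonic sites, had 332 and 502 TPM. Srsf2 therefore lay below Srsf5 in replicate 1 and above it in replicate 2, and the order of that pair is not defined by these libraries.

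Srsf7, a close relative of Srsf3, had 210.2 ± 20.2 TPM, and Srsf1, the founding member of the family, had 144 and 143 TPM. Srsf6 had 135 and 133 TPM, Srsf10, which is activated as a splicing regulator by dephosphorylation, 129.5 ± 6.85, and Srsf11 123 ± 7.09. Srsf9 had 62.1 TPM in replicate 1 and 109.7 TPM in replicate 2, and Srsf4 61.4 ± 4.00. Srsf12, the paralog of Srsf10, was the lowest at 4.22 ± 0.311 TPM. The SR-like TRA2 genes, which activate exons with GAA repeats, were both present, Tra2b at 236 and 220.5 TPM and Tra2a at 52.2 and 49.9 TPM.

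In the families whose paralogs are known to mark tissues, the broadly expressed paralog led. Ptbp1, the repressor of neuronal exons, had 259.6 TPM in replicate 1 and 253 TPM in replicate 2, Ptbp3 had 47.7 and 50.4 TPM, and Ptbp2, its counterpart in neurons, 17.75 and 17.99 TPM. Ptbp1 was 14.3-fold above Ptbp2 and 5.23-fold above Ptbp3. Mbnl1 (82.0 ± 2.24 TPM) and Mbnl2 (54.8 ± 2.14 TPM), which oppose CELF proteins on many exons, stood above Mbnl3 (7.195 ± 0.742 TPM). Celf1 had 61.4 ± 0.750 TPM and Celf2 29.1 ± 1.41, against 4.11 ± 0.156 for Celf4, 3.56 ± 0.205 for Celf3, 2.45 ± 0.0283 for Celf6 and 1.25 ± 0.0283 for Celf5.

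Rbfox2 led its family with 15.6 and 16.4 TPM, 8.47-fold above Rbfox1 (1.85 and 1.93 TPM) and 18.8-fold above Rbfox3 (0.84 and 0.86 TPM), which encodes the antigen NeuN. Rbfox1 had only 76 and 75 expected counts and Rbfox3 57 and 58, and the sizes of both ratios depend on the measure. As log2 they were 3.08 and 4.23 by TPM, 3.06 and 3.42 by posterior mean TPM, and 5.33 and 5.72 by expected counts. The TPM of Rbfox3, like that of Elavl2, lay below the authors' deposited interval in both libraries. That of some other regulators, among them Hnrnpa2b1, Hnrnpf and Srsf3, lay above theirs in both. Elavl1, the ubiquitous HuR, had 51.3 and 47.9 TPM, and Elavl4, the neuronal HuD, 39.1 and 32.6 TPM, a ratio of 1.39. By expected counts, uncorrected for length, that log2 ratio was 2.61 in place of 0.47, and coding transcripts alone held 49.6 TPM in Elavl1 and 11.9 TPM in Elavl4. The other neuronal members were far lower, with Elavl2 at 2.24 and 2.79 TPM and Elavl3 at 1.11 and 0.94 TPM. Nova1 had 0.38 TPM in both libraries and Nova2 0.37 and 0.38 TPM, from 68 to 83 expected counts each. Thus 4 genes, Elavl3, Rbfox3, Nova1 and Nova2, missed 1 TPM in at least 1 library.

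These neuronal paralogs were read in a tissue that holds enteric neurons: of 10 markers of enteric neurons, 7 were detected in both libraries, led by Uchl1 (62.8 ± 3.79 TPM), Stmn2 (43.3 ± 4.23) and Tubb3 (41.9 ± 4.26). The summed level of those markers, which include Elavl3 and Elavl4 themselves, was 226 TPM in replicate 1 and 200.3 TPM in replicate 2. In bulk tissue, fewer cells of a type and less RNA per cell cannot be told apart. How much of any level here came from neurons was not tested.

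Of 26 pairs of related genes compared within each library, 23 were apart, meaning that the log2 ratio of TPM had the same sign in both libraries and a mean above 3 SD. The 3 largest ratios were Elavl1 at 48.6-fold over Elavl3, Srsf10 at 30.7-fold over Srsf12 and Hnrnpk at 27.8-fold over Hnrnpu. Ratios of the other hnRNP pairs varied widely. Hnrnpul1 stood 9.80-fold over Hnrnpul2, and Hnrnpf 3.09-fold over Hnrnph1. Hnrnpa1 stood at 0.567 of Hnrnpa2b1 and 2.03-fold over Hnrnpa3, Hnrnph1 1.97-fold over Hnrnph2 and Hnrnpl 3.95-fold over Hnrnpll. Hnrnpd stood at 0.381 of its paralog Hnrnpdl. Tra2b was 4.47-fold over Tra2a, Srsf3 2.47-fold over Srsf7, and Mbnl1 1.498-fold over Mbnl2. The 3 pairs not apart were Nova1 with Nova2, Srsf1 with Srsf9 (log2 ratios of 1.21 and 0.39) and Srsf2 with Srsf5 (-0.33 and 0.34).

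**Figure D2:**
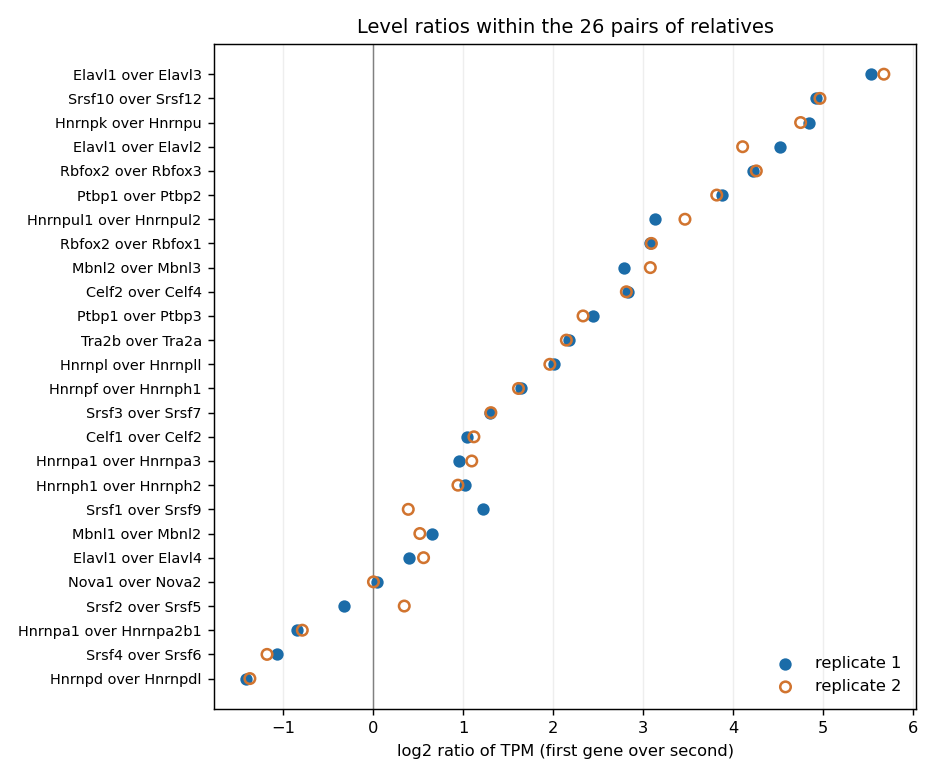
Log2 ratio of TPM within each of 26 pairs of related regulators, 1 point for each library, with 0 marking equal levels. Ptbp1 over Ptbp2 stands near 3.8 in both libraries, while Srsf2 over Srsf5 changes sign between them.

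Between the libraries, 2 of 51 regulators at a mean of 1 TPM or more were at least 1.5-fold higher in replicate 2, against 2.38% of all protein-coding genes at that level, and 0 were at least 1.5-fold lower, against 1.47%. The 2 were SR proteins: Srsf2 at 1.53-fold (log2 0.61) and Srsf9 at 1.78-fold (log2 0.84), the latter from 1810 and 3136 counts. The authors' deposited intervals of TPM did not overlap for either gene, running from 318 to 334 against 483 to 503 for Srsf2 and from 57.2 to 66.3 against 102.7 to 113.4 for Srsf9. Those of some regulators under 1.5-fold did not overlap either, so this does not set the 2 genes apart. Examples are Hnrnpk (1095 to 1137 against 1009 to 1053) and Srsf3 (533 to 552 against 466 to 484). The TPM of Srsf3 itself lay just above its interval in both libraries. In Srsf2 the coding transcript Srsf2-201 had 151 and 274 TPM, while the NMD transcript Srsf2-204 had 140 and 178. The other 49 regulators lay between -0.25 and 0.32 on the log2 scale, with the median over expressed genes set to 0. Of the 51, 38 were lower in replicate 2 (74.5%, against 6754 of all 13509 genes), with a median of -0.07. Srsf2 overlaps exons of the antisense genes Mettl23 and Mfsd11, and neither label nor header says if reads keep their strand, so reads of these genes may be mixed. In all, 19 regulators overlap exons of an antisense gene, among them Hnrnpk (Rmi1) and Elavl1 (Ccl25). The same limit holds for their levels and ratios given above.

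Transcript shares come from 393 transcripts of these genes. By the type given in the annotation, 226 encode protein, 32 are NMD targets, 133 are noncoding (78 retained_intron and 55 processed_transcript, a class with no open frame assigned) and 2 have no type there. In the annotated models the stop codon of all 32 NMD transcripts lies more than 50 nt before the last exon junction. The distance is 67 to 1015 nt, with a median of 335, and describes the annotation, not these reads. Reads were assigned to GENCODE M4, whereas types and exons were taken from the later release M21 by transcript identifier. The quantified length equalled the later one for 361 transcripts (91.9%, holding 75.2% of the TPM). Where it differs, whether the quantified model held a given exon could not be read from these files, and this is stated beside the genes it touches. The RNA is labelled total RNA, and reads of unspliced precursors cannot be told apart from those of retained-intron transcripts in these tables.

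The part of a regulator's TPM held by noncoding transcripts varied widely between genes. Among the 28 at a mean of 5 TPM or more with a noncoding model, 11 had at least 20% of their TPM in noncoding transcripts (39.3%), against 29.0% of all such protein-coding genes. The median share was 12.1%, against 8.11%, with quartiles of 4.96% and 31.7%. These regulators had a median of 9 transcripts and 104 TPM, against 6 transcripts and 28.3 TPM for all such genes, so the 2 sets differ in models and in depth. By expected counts in place of TPM, 6 of the 28 reached 20% and the median was 5.28%, against 3.48% of all. Many noncoding models are short, TPM counts molecules per length, and the share was higher by TPM than by counts in 21 of the 28. The SD was under 2 percentage points in 23 of the 28.

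**Figure D3:**
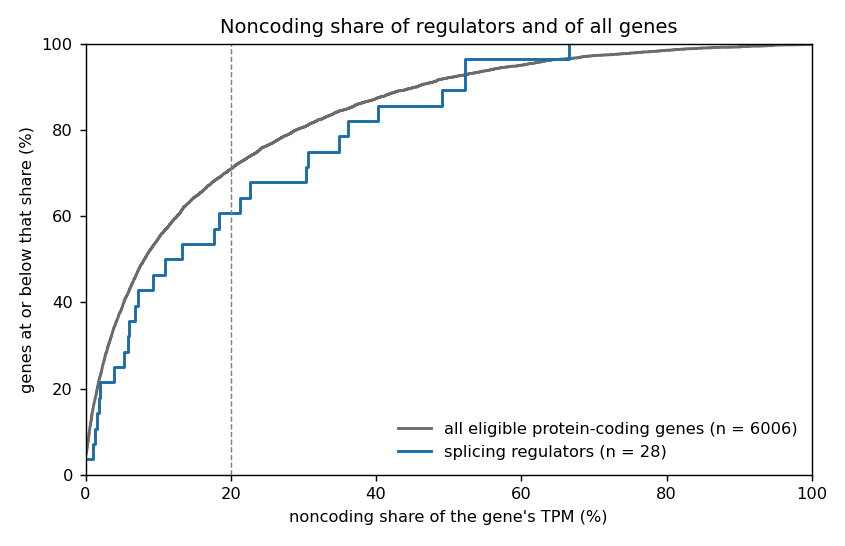
Cumulative distributions of the noncoding share, as percent of TPM, for the splicing regulators and for all eligible protein-coding genes. The regulators' median is 12.1%, against 8.11%.

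Among the SR proteins 4 of 9 eligible genes had a noncoding share of 20% or more, and among the hnRNPs 5 of 11. Elavl4 had the highest share, 68.0% in replicate 1 and 65.3% in replicate 2. Its processed transcripts Elavl4-211 (15.8 and 13.0 TPM) and Elavl4-210 (10.8 and 8.31 TPM) exceeded the coding Elavl4-202 (6.52 and 5.10 TPM). By expected counts the order was the opposite, with 753 and 572 counts for Elavl4-202 against 358 and 285 for Elavl4-211, since the coding model is far longer, and the noncoding share by counts was 31.0% and 29.1%.

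Hnrnph1 came next, with 52.1% and 52.4%, and kept 40.3% and 41.1% by counts. Its share was spread over several processed transcripts, led by Hnrnph1-212 (56.3 and 48.3 TPM), beside the coding Hnrnph1-201 (71.2 and 70.0 TPM). Srsf3 had 51.2% and 53.3% noncoding (32.6% and 34.9% by counts), of which the retained-intron transcript Srsf3-205 held 259 and 234 TPM and the coding Srsf3-202 204 and 175 TPM. The quantified model of Srsf3-205 was 910 nt long against 2110 nt later. Srsf5 had 46.8% and 51.5%, and here the share by counts was higher, 56.2% and 61.9%. Its retained-intron transcript Srsf5-212 had 140 and 156 TPM, and the coding Srsf5-201 141 and 118, so the leading transcript changed between the libraries.

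Further down, Hnrnpl had 42.7% and 38.0% noncoding, Srsf10 36.4% and 35.8%, and Hnrnpk 34.7% and 35.1%. By counts these were 23.4% and 20.3% for Hnrnpl, 9.03% and 8.28% for Srsf10, and 14.94% and 14.96% for Hnrnpk. Of these 3 genes Srsf10 had the widest gap between the TPM and count shares. Srsf11 had 30.6% and 30.7%, with 30.4% and 31.8% by counts, and Hnrnpdl 29.9% and 30.7%. Mbnl1 had 31.0% in replicate 1 and 14.4% in replicate 2. This was the share with the widest spread (SD 11.7 points), and a single short model, Mbnl1-212, went from 10.7 TPM to no assigned reads. Hnrnpu had 21.2% and 21.3%, but 2.20% and 2.36% by counts. At the low end stood Hnrnpa3 (1.26% and 0.764%), Hnrnpd (0.909% and 1.66%) and Hnrnpr (0.245% and 0.237%).

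**Figure D4:**
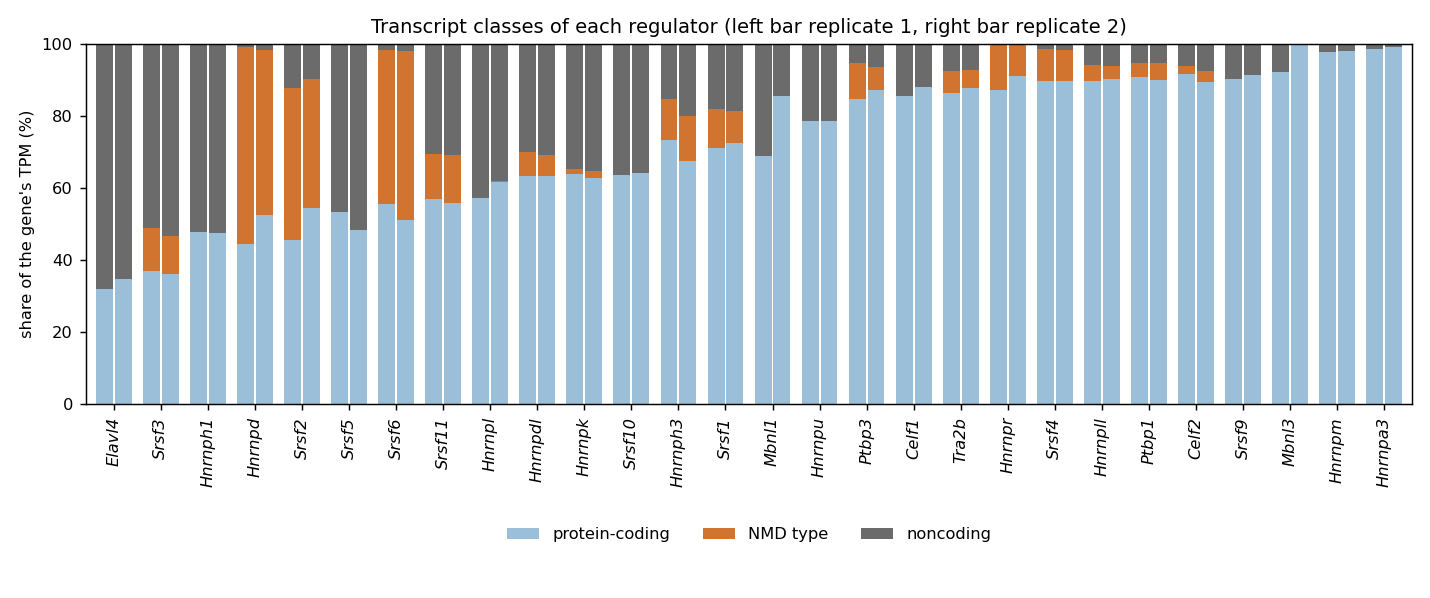
Percent of each regulator's TPM in coding, NMD and noncoding transcripts, with replicate 1 as the left bar and replicate 2 as the right bar. Shown are members at a mean of 5 TPM or more with a noncoding or NMD model. By the mean of both libraries, Elavl4, Srsf3, Hnrnph1 and Hnrnpd have under 50% in coding transcripts.

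Less than 50% of the TPM was in coding transcripts for 4 of 37 regulators with more than 1 transcript (10.8%, against 9.01% of all), namely Elavl4, Srsf3, Hnrnph1 and Hnrnpd. Over whole families, coding transcripts held 57.5% of the TPM of SR proteins, 85.6% of that of hnRNPs, 90.3% for PTBP and 72.6% for ELAVL. Genes with no noncoding or NMD model quantified, such as Hnrnpa2b1, Hnrnpf, Hnrnpa1, Srsf7, Elavl1 and Ptbp2, enter these values as fully coding. Differences between the families therefore depend in part on which models were quantified. Ranked by coding TPM alone, Srsf3 moved from rank 4 to rank 14 (190 ± 20.6 TPM), Srsf6 from 17 to 22, Elavl4 from 34 to 41 and Hnrnpd from 35 to 40, while Ptbp1 moved from 8 to 5. Hnrnpk stood second by coding TPM (692.6), behind Hnrnpa2b1. Another 14 regulators at 5 TPM or more had no noncoding or NMD model among those quantified, Hnrnpa2b1, Hnrnpf, Hnrnpa1, Hnrnpab, Srsf7, Hnrnpc, Hnrnph2, Mbnl2, Tra2a, Elavl1, Hnrnpul1, Ptbp2, Hnrnpa0 and Rbfox2. Of these, 5 had a single quantified transcript, and for 4 of the 5 the later release lists NMD or noncoding transcripts, so no share could be had for them here. The later release lists such transcripts also for Hnrnpa2b1, Hnrnpa1, Hnrnpc, Mbnl2, Hnrnpul1 and Rbfox2. All TPM of these genes counts as coding here, and the place of Hnrnpa2b1 above Hnrnpk by coding TPM rests on that.

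The leading transcript was the same in both libraries for 31 of 37 regulators (83.8%), against 93.8% of all such genes. It differed in Hnrnpd, Hnrnpl, Srsf5, Hnrnpdl, Mbnl3 and Hnrnpf. In Hnrnpf both transcripts involved encode protein (Hnrnpf-201 at 264 and 260.0 TPM, Hnrnpf-210 at 280.2 and 233 TPM). In Hnrnpl the retained-intron Hnrnpl-210 led in replicate 1 (33.7 TPM) and the coding Hnrnpl-202 in replicate 2 (31.1 TPM). In Hnrnpd the NMD transcript Hnrnpd-208 led in replicate 1 (9.58 TPM) and the coding Hnrnpd-203 in replicate 2 (9.84 TPM).

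Retained-intron transcripts at 1 TPM or more in both libraries held 17 introns of 10 regulators, and 16 of the 17 lay between coding exons. These introns were 78 to 2150 nt long, with a median of 285 nt, against 342 nt for all 83 introns of the same coding transcripts. Hnrnpk-217, the most abundant, had 317 and 280 TPM, against 510 and 456 TPM for the coding Hnrnpk-201. It retains intron 13 of 15, which is 78 nt long and 24.4% G or C, at chr13:58393775-58393852 on the minus strand. Srsf5-212 retains intron 5 of 7, 1229 nt long, at chr12:80947866-80949094 on the plus strand. Hnrnpl-210 (33.7 and 29.4 TPM) retains intron 11 of 12, 118 nt long and 59.3% G or C, at chr7:28821274-28821391 on the plus strand. The splice sites of these introns (mm10, exon structures of GENCODE M21) are printed 5′ to 3′ to show what is left unspliced, with the first and last bases of the intron in capitals:
Hnrnpk intron 13, 5′ splice site: atgGTaagt
Hnrnpk intron 13, 3′ splice site: ctgctcattatttaaatcAGact
Srsf5 intron 5, 5′ splice site: cagGTttgt
Srsf5 intron 5, 3′ splice site: cataattgtcttgtgttaAGgat
Hnrnpl intron 11, 5′ splice site: aaaGTgagt
Hnrnpl intron 11, 3′ splice site: ctgtctcctgtttgattcAGgcg

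Each of the 3 introns begins with GT and ends with AG. Further retained-intron transcripts were Srsf2-203 (40.5 and 48.3 TPM, intron 2 of 2), Srsf3-204 (23.7 TPM in both, introns 3 and 4 of 5), Ptbp1-213 (7.86 and 8.06 TPM, intron 9 of 12) and Hnrnph3-206 (5.46 and 5.90 TPM, intron 4 of 9). Srsf3 intron 3, 2150 nt, is the longest of the 17, and it spans the poison exon described next.

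NMD transcripts were a smaller part. Of 18 regulators at 5 TPM or more with an NMD model, 7 had at least 10% of their TPM there (38.9%), against 28.4% of all such genes, and the median was 8.51%, against 3.09%. The count depends on the rule: at an NMD share of 20% it was 3 of 18 (16.7%, against 18.4% of all), by expected counts 5 of 18 (27.8%, against 24.8%) and by posterior mean TPM 6 of 18 (33.3%, against 31.2%). The 7 comprise 4 of 7 eligible SR proteins and 3 of 7 eligible hnRNPs. Hnrnpd had 54.6% and 45.7%, Srsf6 42.7% and 47.1%, and Srsf2 42.3% and 35.8%. By expected counts these were 35.5% and 28.4%, 25.5% and 29.2%, and 17.7% and 14.2%. Srsf6 thus held nearly as much of its NMD transcript Srsf6-201 (57.5 and 62.6 TPM) as of its coding Srsf6-203 (74.6 and 67.3 TPM), and in both libraries the coding form was higher.

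The next NMD shares were far lower. Srsf11 had 12.5% and 13.5%, Hnrnph3 11.5% and 12.4%, Srsf3 11.9% and 10.6%, and Hnrnpr 12.5% and 8.71%. Srsf1 had 10.7% and 8.76%, Srsf4 8.72% and 8.76%, and Ptbp3 10.0% and 6.53%. The TPM of Srsf1 and Srsf4 was thus mostly coding, and Srsf1 held more TPM in the retained-intron Srsf1-203 (23.8 and 23.6) than in the NMD Srsf1-204 (15.4 and 12.2). In Srsf2-204 and the 2 main NMD transcripts of Hnrnpd the stop codon lies 113 and 137 nt before the last junction, against 534 nt in Srsf6-201.

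Exons that separate coding from NMD or noncoding transcripts were found 39 times, and 15 of these had an inclusion between 5% and 95% in both libraries. Inclusion is the TPM of transcripts that hold the exon as a percent of that plus the TPM of transcripts whose intron spans it. The 268-nt exon of Srsf6 at chr2:162932815-162933082, plus strand, was included at 43.5% in replicate 1 and 48.2% in replicate 2, and both of its models are of unchanged length. The stop codon ends at base 152 of the exon. The 456-nt exon of Srsf3 at chr17:29039454-29039909, plus strand, was included at 24.3% and 22.6%, and its stop codon ends at base 34. The 117-nt exon of Srsf11 at chr3:158023243-158023359, minus strand, was included at 17.4% and 19.5%, and the 109-nt exon at chr3:158024123-158024231 at 13.1% and 14.04%. The 276-nt exon of Tra2b at chr16:22258986-22259261, minus strand, was included at 13.2% and 10.8%. Each stretch below runs from the first base of the exon to the stop codon that ends the reading frame of the NMD transcript, which is in capitals (mm10, coding strand, GENCODE M21), since this is the part that makes the exon a poison exon:
Srsf6 268-nt exon: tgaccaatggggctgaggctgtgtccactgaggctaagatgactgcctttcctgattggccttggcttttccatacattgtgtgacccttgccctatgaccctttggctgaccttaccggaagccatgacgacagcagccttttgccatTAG
Srsf3 456-nt exon: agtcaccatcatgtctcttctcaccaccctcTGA
Srsf11 117-nt exon: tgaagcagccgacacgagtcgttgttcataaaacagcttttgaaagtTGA
Srsf11 109-nt exon: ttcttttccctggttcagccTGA
Tra2b 276-nt exon: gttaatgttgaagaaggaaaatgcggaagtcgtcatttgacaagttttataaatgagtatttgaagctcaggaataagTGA

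The stop codon is TGA in 4 of these 5 exons and TAG in Srsf6. In Srsf3 the model that holds the exon and the one that skips it both changed length, so its value rests on changed models alone. In Tra2b the model that holds the exon changed, and in Srsf11 some of those that skip the exons did. With transcripts that overlap the Srsf3 exon counted as holding it, its inclusion was 63.4%, and that of the Tra2b exon 23.3%. With unchanged models alone the 117-nt exon of Srsf11 was at 39.7% and the 109-nt exon at 29.3%. With overlapping transcripts those 2 stood at 24.2% and 23.7%. The Srsf6 exon is thus the 1 of these 5 whose value rests on unchanged models throughout.

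The other 7 exons of this kind that were named by their level lie in 7 genes. In Hnrnpd, a 107-nt exon past the stop codon, held by 2 of its 4 NMD transcripts, Hnrnpd-208 and Hnrnpd-204, was included at 54.9% and 46.5%. The 105-nt exon of Hnrnpdl stood at 28.1% and 34.9%, but at 68.0% with overlapping transcripts counted as holding it. A 64-nt exon of Srsf11 was at 11.97% and 11.3%, and at 22.1% with unchanged models alone or 24.6% with overlapping transcripts. Also low were a 358-nt exon of Srsf9 at 9.93% and 8.74% (changed model), and a 184-nt exon of Srsf4, at 8.85% and 8.91%. In 2 genes the reverse held, and the exon was skipped only in NMD or noncoding transcripts. These were a 187-nt coding exon of Srsf1, included at 33.3% and 35.7%, and a 90-nt coding exon of Hnrnph1, included at 81.4% and 85.1%. The Srsf1 value covers the few transcripts that hold this exact exon (7.33 TPM) or span it with an intron (13.98 TPM), out of 143.7 TPM for the gene. With overlapping transcripts counted as holding it, its inclusion was 90.1%. The libraries lay closest together in Srsf4 and furthest apart in Hnrnpd.

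**Figure D5:**
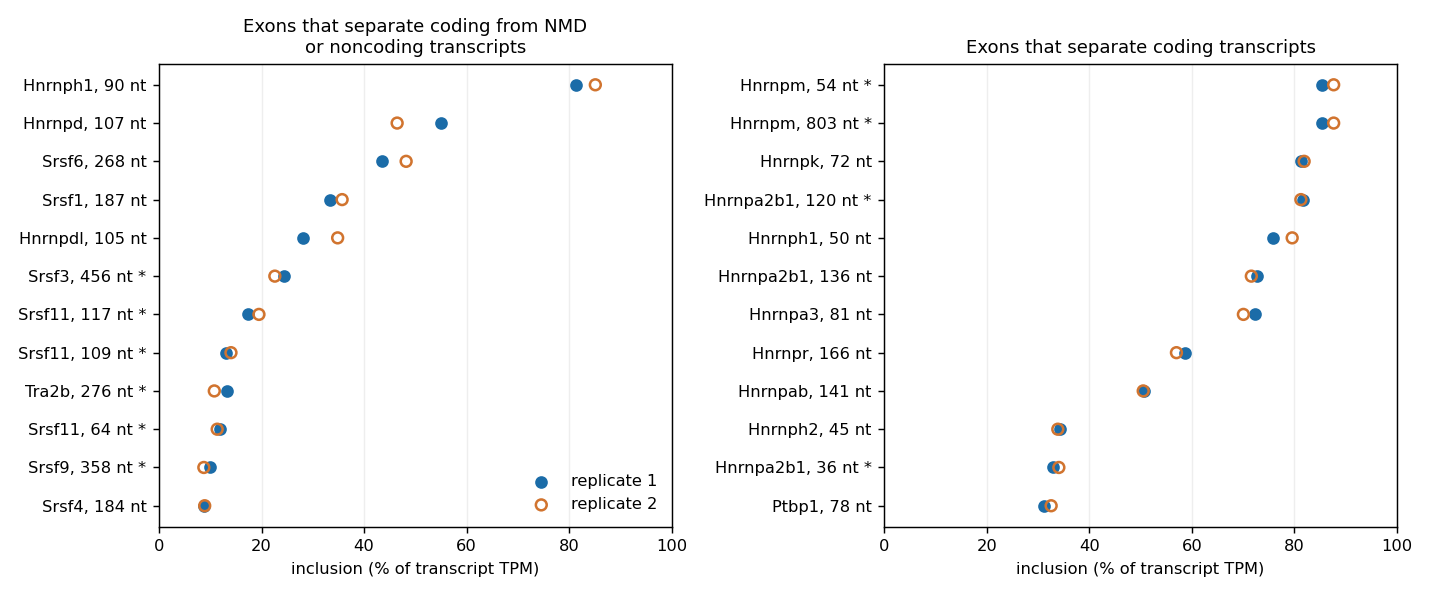
Inclusion in percent of the named exons in replicate 1 and replicate 2, for exons that mark NMD or noncoding transcripts and for exons that differ between coding transcripts, with an asterisk where a quantified model changed length. The Srsf6 poison exon lies at 43.5% and 48.2%, and the 141-nt exon of Hnrnpab at 50.6% and 50.5%.

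Exons that differ between coding transcripts number 54, with 28 between 10% and 90% inclusion in both libraries. Hnrnpk holds a 72-nt exon at 81.3% and 81.9% (chr13:58396188-58396259, minus strand). Hnrnpab holds a 141-nt exon, by which its longer and shorter proteins differ, at 50.6% and 50.5% (chr11:51601750-51601890, minus strand). Both were nearly identical between the libraries. The 78-nt exon of Ptbp1 (chr10:79860117-79860194, plus strand), in the linker between its RNA-binding domains, was at 31.2% and 32.5%, and an 81-nt exon of Hnrnpa3 (chr2:75662845-75662925, plus strand) at 72.3% and 70.1%. The 36-nt exon by which the B1 protein of Hnrnpa2b1 differs from A2 (chr6:51467391-51467426, minus strand) was at 32.8% and 34.05%, but the model that holds it changed length. Outside the rule, and chosen after their values were seen, are 2 exons of Mbnl1, a 54-nt exon (chr3:60614683-60614736, plus strand) at 50.9% and 62.7% and a 36-nt one (chr3:60621423-60621458, plus strand) at 30.6% and 38.4%. The models that skip each of them include Mbnl1-212, the short model described above that had no assigned reads in replicate 2. Both Mbnl1 exons differed more between the libraries than the hnRNP exons printed here, and the part of Mbnl1-212 in this was not tested. These exons are printed whole, on the coding strand (mm10, GENCODE M21) and with no part in capitals, because each adds a multiple of 3 bases and so changes the protein without shifting its frame:
Hnrnpk 72-nt exon: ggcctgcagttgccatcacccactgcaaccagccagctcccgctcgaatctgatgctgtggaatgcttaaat
Hnrnpab 141-nt exon: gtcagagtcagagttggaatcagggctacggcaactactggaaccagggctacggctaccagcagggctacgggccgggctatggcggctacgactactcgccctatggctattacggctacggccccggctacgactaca
Ptbp1 78-nt exon: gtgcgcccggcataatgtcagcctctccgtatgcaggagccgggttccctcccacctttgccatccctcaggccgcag
Hnrnpa3 81-nt exon: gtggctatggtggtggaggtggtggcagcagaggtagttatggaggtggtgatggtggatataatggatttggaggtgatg
Hnrnpa2b1 36-nt exon: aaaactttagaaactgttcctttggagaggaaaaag
Mbnl1 54-nt exon: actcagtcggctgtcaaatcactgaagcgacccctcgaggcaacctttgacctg
Mbnl1 36-nt exon: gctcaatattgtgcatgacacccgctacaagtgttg

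The other coding exons named by level were all in hnRNP genes. Hnrnpa2b1 held its 120-nt exon at 81.7% and 81.3%, and at 72.2% with unchanged models alone. It held a 136-nt untranslated exon at 72.7% and 71.6%. Hnrnph1 held a 50-nt exon at 75.8% and 79.6%, Hnrnph2 a 45-nt untranslated exon at 34.3% and 33.8%, and Hnrnpr a 166-nt exon at 58.6% and 57.0%. In Hnrnpm the 803-nt and 54-nt exons were each at 85.4% and 87.7%, and at 61.0% with unchanged models alone.

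Other genes of the splicing pathway, taken from fixed lists, give the setting. Of 30 core spliceosome genes all were detected, at a median of 94.5 TPM, from Snrpb (426 ± 34.4 TPM), Snrpg (406 ± 26.2) and Snrpe (404 ± 27.3), which belong to the Sm ring of the snRNPs, down to Prpf4 (12.9 ± 0.990). There 3 of 18 eligible genes had a noncoding share of 20% or more by TPM, where 29.0% of all eligible protein-coding genes did. The same background applies to the lists that follow. Of the 9 kinases that phosphorylate SR proteins, 8 were detected, at a median of 24.9 TPM, led by Clk1 (114 ± 3.36), Clk4 (70.4 ± 1.29) and Srpk1 (63.3 ± 6.39), with Srpk3 lowest at 1.23 ± 0.544. Of 5 eligible kinases, 4 reached 20%, and Clk1 stood at 54.7% noncoding. Within the list of 14 NMD factors all were detected at a median of 16.5 TPM, from Eif4a3 (273 ± 18.4), Magoh (115 ± 4.52) and Rbm8a (54.4 ± 2.86), parts of the exon junction complex, to Upf1, the helicase of the pathway, at 5.68 and 6.15 TPM. There 4 of 10 reached 20%.

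Among 33 other splicing regulators all were detected at a median of 61.9 TPM, and 10 of 19 had a noncoding share of 20% or more by TPM, against 29.0% of all eligible genes. Ewsr1 (440 ± 18.8 TPM), Rbm39 (393 ± 13.8, with 64.0% noncoding) and the cold-induced Rbm3 (333 ± 20.8) led, and the neuronal microexon regulator Srrm4 was lowest at 1.085 ± 0.0212 TPM. Between the libraries, 0 of the core spliceosome, NMD factor and other regulator genes passed 1.5-fold in either direction, and 1 kinase gene was higher in replicate 2.

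The labelled tissue was checked against its markers. All 6 epithelial markers were detected, led by Lgals4 (2141 ± 106 TPM), and all 6 of smooth muscle, led by Actg2 (1484 ± 13.7 TPM). Of 6 markers of enteric glia and their progenitors 5 were detected, led by Fabp7 (29.6 ± 2.26 TPM). Of 4 skeletal muscle markers 3 were detected, Mylpf at 14.3 ± 1.71 TPM, Ckm at 10.8 ± 1.16 and Acta1 at 10.8 ± 1.99, while Myod1 stood at 0.04 and 0.10 TPM. The list summed to 34.9 TPM in replicate 1 and 37.0 TPM in replicate 2, and its part in the regulators' levels was not tested. Of 5 genes of germ cells and brain 1 was detected, Neurod1 at 2.58 ± 0.191 TPM, and Olig2 had no counts in either library, which allows up to 3 counts in each.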

How the data were processed

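The gene and transcript tables, per the file headers and an accompanying text, hold values for GENCODE M4 models on mm10. No source used here names the aligner or quantifier. The authors' expected counts are estimated reads of each gene or transcript. The deposited TPM values divide them by effective length and scale each library to one total, and a deposited percent column holds the part of its gene that a transcript makes up. Intervals of TPM are the authors', at a level not stated. Features that name no gene held 1.81% and 1.74% of counts and were left out.

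Symbols, transcript types, exons and sequences came from GENCODE M21 (mm10), matched by identifier. The noncoding share is the TPM of transcripts typed neither protein_coding nor nonsense_mediated_decay over all typed TPM. It was computed at a mean TPM of at least 5. Library differences used log2(TPM + 0.1) less the median of expressed genes. No group comparison, and so no p-value, was possible. The text names all members, the 10 highest noncoding and NMD shares, the 3 lowest noncoding shares, up to 12 exons of each kind by the TPM of the lesser form, and the 3 highest and the lowest gene of each list of splicing genes, with fewer for the marker lists. Members, pairs, lists and rules were chosen with earlier results of these data known. Alternatives were other thresholds, posterior means, expected counts, version-matched or unchanged transcripts, and single libraries. Depth was 42040766 and 41480301 expected counts, and intervals cover counting error only. Python 3.11.15, numpy 2.4.6, pandas 2.3.3 and matplotlib 3.10.9 were used, and the scripts were tested on simulated data.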

Additional observations from a re-analysis of the deposited data

How the results depend on the processing

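No pair that was apart changed direction under any alternative run; of the 3 not apart, the log2 ratio of Nova1 over Nova2 was -0.04 by posterior mean TPM (0.02 by TPM) and that of Srsf2 over Srsf5 -0.45 by expected counts (0.0048 by TPM). The median noncoding share (12.1%, against 8.11% of all eligible genes) was 5.28% (3.48%) by expected counts, 25.4% (10.1%) with NMD transcripts counted as noncoding, 59.6% (52.6%) with transcripts matched in identifier and version, and, in alternatives chosen after seeing the data, 17.7% (5.23%) at 50 TPM or more and 10.9% (9.51%) with transcripts of unchanged length. It ran from 10.8% to 13.4% with 1 library left out. The number with a noncoding share of 20% or more (11, or 39.3% against 29.0% of all) was 6 by expected counts (21.4% against 14.3%), 10 with unchanged lengths (37.0% against 32.9%) and 11 with either library left out. The number with an NMD share of 10% or more (7) was 12 at 5% (66.7% against 41.6% of all), 3 at 20% (16.7% against 18.4%, the opposite order), and 6 to 9 with 1 library left out. At 2-fold, 0 regulators differed between the libraries (2 at 1.5-fold). The median level was 61.4 TPM over regulators at 1 TPM or more, and 57.4 to 59.0 TPM with 1 library left out, which detected 50 to 51. The other 42 alternatives of the main values moved less than the replicate spread or by less than 1.5 times. Of the alternatives for single exons and pairs, 58 moved and 162 did not. The cause was not tested, except that expected counts weigh long transcripts more and that stricter matching leaves fewer transcripts. Pairs were not rerun with 1 library left out, since 1 value has no SD. No paired analysis was possible because the libraries form 1 group. Depth behind the shares was lowest in Mbnl3, with 494 and 440 counts.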
